A study of Mus musculus with 3 samples.

Results

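Collagen genes were followed across 3 single-nucleus RNA libraries from whole mouse cornea, 1 library per group. The members were taken by symbol alone: every gene named Col, digits, a, digits in the gene list of the WT library whose Ensembl ID is in all 3 gene lists. This gave 44 genes of 30406 shared IDs, and all 44 matching symbols of the WT list were kept. The labels give 5 mice per group, aged 7 weeks, whose frozen corneas were combined into 1 library. The WT library came from untreated wild-type mice. KO came from untreated mice labelled knockout, which the series text names as Aire knockout with dry eye disease, and KO_PBS from such mice given PBS (phosphate-buffered saline) for 14 days. Aire lets thymic cells show tissue antigens to maturing T cells, and its loss leads to autoimmunity. The series text gives 6 weeks of age and treatment day 7 instead and mentions mice given lacripep, which are not analysed here, and strain and sex were not given in the sources used here.

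Collagens are proteins built from chains that wind into a helix of 3. Fibrillar collagens (types I, III, V, XI and others) form the thin, evenly spaced fibrils that make the corneal stroma strong and clear, and keratocytes, the resident stromal cells, lay them down. Type IV chains form the sheet of basement membranes, and type VIII is the main collagen of Descemet's membrane, which the corneal endothelium makes. FACITs (fibril-associated collagens with interrupted helices) sit on fibril surfaces, type VI forms beaded filaments, and type XVII is a transmembrane collagen that ties basal epithelial cells to the matrix.

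Depth was 256852883 UMIs for WT, 352627863 for KO and 178988562 for KO_PBS. A UMI is a unique molecular identifier, counted once per captured molecule, and levels below are counts per 1000000 UMIs (CPM) of the library in the shared genes, summed over all barcodes. Since each group is 1 library, differences have no check by replicates and were not tested, and intervals are exact 95% Poisson intervals that cover counting error only. A gene is called higher or lower by a rule of size: 50 or more UMIs in the pair of libraries, a 2-fold or larger ratio and separate intervals. The targeted gene Aire was low in each library, with 0.0586 CPM for WT, 0.0768 for KO and 0.382 for KO_PBS, from 15, 27 and 68 UMIs. By the rule of size it was higher in KO_PBS than in WT and in KO, so Aire gave no check of the knockout labels. Between 2833 and 3379 barcodes were shared by each pair of libraries. The KO_PBS library stood apart in its tissue markers. Its summed lens list was 34.5-fold that of KO, photoreceptor 40.0-fold, melanocyte 29.6-fold and retinal pigment epithelium 24.6-fold, with none of the detected markers at 0 in any library. The KO level of those lists was in turn 0.288 to 0.405-fold that of WT. In sums of this kind more cells of a type and more RNA per cell cannot be told apart.

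Collagen UMIs of all 44 genes made up 1797 CPM for WT, 4606 for KO and 3862 for KO_PBS. Fibrillar genes carried most of the difference between KO and WT. Their 11 genes summed to 619 CPM in WT (616 to 622), 2609 in KO (2603 to 2614) and 1371 in KO_PBS (1366 to 1377). The 9 basement membrane and anchoring genes showed another order, with 219, 256 and 831 CPM (WT, KO and KO_PBS). The 9 FACIT genes summed to 162, 351 and 345, and the 9 network and beaded filament genes to 257, 613 and 838. The 4 transmembrane genes summed to 538, 777 and 469. As a share of collagen UMIs, the fibrillar class went from 34.4% in WT to 56.6% in KO and 35.5% in KO_PBS, and the basement membrane class from 12.2% to 5.56% and 21.5%. These shares describe UMIs, since gene lengths differ and the counting of intronic reads is not stated.

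**Figure D1:**
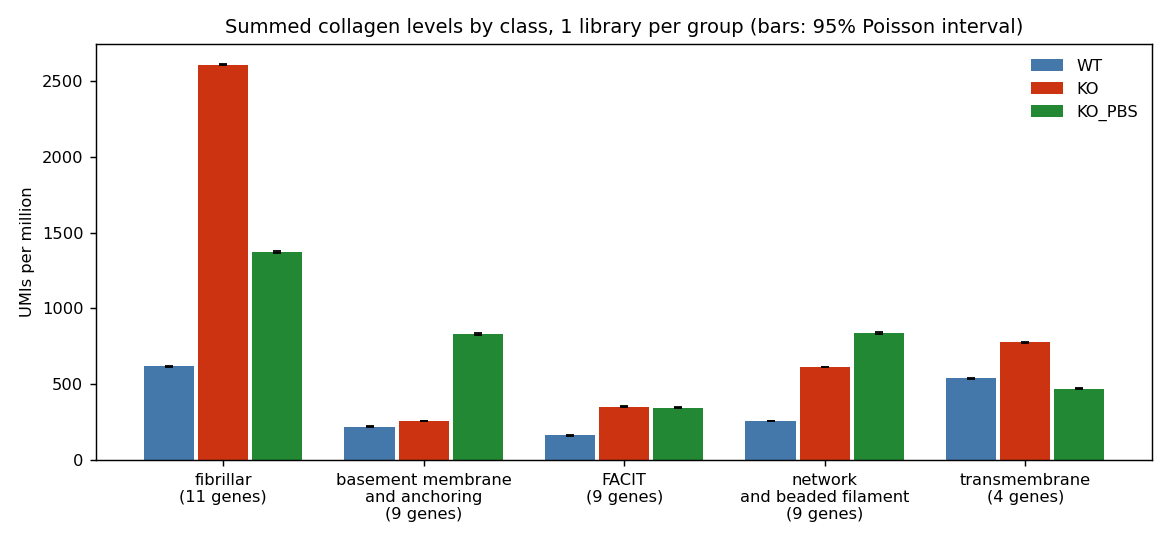
Summed level of each collagen class in CPM (vertical axis) in the WT, KO and KO_PBS libraries, with 95% Poisson intervals. Fibrillar genes stand at 2609 CPM for KO, above 619 for WT and 1371 in KO_PBS, while the basement membrane class is highest in KO_PBS at 831.

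The first comparison sets the untreated knockout cornea beside that of wild type. By the rule of size KO exceeded WT for 19 of the 44 collagen genes and fell short of it for 5, a called share of 54.5%. Of the 20252 genes that met the UMI minimum, the rule called 20.6% higher and 8.63% lower, 29.2% in all. The median log2 ratio was 0.79 for the collagens and 0.24 for all genes. All 44 passed the UMI minimum. After centring on the median gene 15 were higher and 6 lower, against 14.8% and 12.9% (27.7% in all) of all genes.

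Fibrillar collagens of the stroma were the main group, with 9 of 11 called higher in KO. Col1a1 (ENSMUSG00000001506, chromosome 11, 94936224 to 94953042, GRCm38), a chain of type I collagen, was at 217 CPM in WT (215 to 219), 928 in KO (925 to 931) and 429 in KO_PBS (426 to 433). Its partner chain Col1a2 (ENSMUSG00000029661, chromosome 6, 4504814 to 4541544) was at 245, 1163 and 662. Both chains thus stood highest in KO, with a KO over WT fold of 4.27 for Col1a1 and 4.75 for Col1a2. Col3a1, the type III chain found in extensible tissues and in wound repair, was at 60.6, 224 and 108. Col5a1 and Col5a2, whose type V product limits fibril diameter, were highest in KO too. For Col1a1, Col3a1, Col5a1 and Col5a2 the KO_PBS level was above that of WT without centring and below it after. Col5a1 was at 29.8 CPM for WT, 97.3 for KO and 41.7 for KO_PBS. Col5a2 was at 47.8, 145 and 62.3, and Col5a3 at 2.37, 6.42 and 5.03.

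Upstream sequences are shown for fibrillar genes that were high together in KO, to set their promoters side by side. They are the 120 bases before the RefSeq start on GRCm38.p6, 5′ to 3′ on the plus strand, which is the strand of each gene. For Col1a2 this start lies inside the gene as GENCODE M21 annotates it. Capitals mark the motif CCAAT, the motif TATAAA or the motif GGGCGG, searched on either strand.
Col1a2 (chr6:4505498-4505617): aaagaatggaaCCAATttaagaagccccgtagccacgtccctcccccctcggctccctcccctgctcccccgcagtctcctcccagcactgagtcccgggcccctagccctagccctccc
Col3a1 (chr1:45311418-45311537): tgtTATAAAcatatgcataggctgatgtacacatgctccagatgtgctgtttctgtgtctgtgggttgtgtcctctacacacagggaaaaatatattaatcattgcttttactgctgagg
Col5a1 (chr2:27886305-27886424): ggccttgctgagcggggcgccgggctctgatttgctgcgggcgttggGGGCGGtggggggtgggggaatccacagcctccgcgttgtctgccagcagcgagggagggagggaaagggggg

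These stretches hold different motifs. CCAAT, the letters bound by NF-Y, lies at -109 from the start in Col1a2, TATAAA at -117 in Col3a1 and GGGCGG, the letters of a GC box, at -73 in Col5a1. RefSeq promoters matched 35 of the 44 genes, with 38 windows of 250 upstream bases. CCAAT on either strand was in 34.2% of them against 33.8% of 32851 windows of all genes. TATAAA was in 13.2% against 12.4%, and GGGCGG in 57.9% against 32.7%. Of the 16 windows of genes higher in KO, 4 held CCAAT, 1 TATAAA and 11 GGGCGG. Of the other 22 windows, 9, 4 and 11 did. A match describes letters only.

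The other fibrillar genes did not all follow this order. Col11a1, a type XI chain that nucleates thin fibrils, was at 9.82 CPM for WT, 31.0 for KO and 35.1 for KO_PBS. Its partner Col11a2 was at 0.875, 1.21 and 4.40 and was not called between KO and WT. Col24a1 was at 2.49, 5.79 and 7.75, a call lost after centring, and Col27a1, a cartilage-associated fibrillar chain, at 2.88, 7.46 and 11.7. Of these 4 genes, Col11a2 was called higher in KO_PBS than in KO. The others were not, and after centring their log2 ratios of KO_PBS over KO were -0.45 for Col11a1, -0.21 for Col24a1 and 0.02 for Col27a1. Col2a1, the chain of cartilage and vitreous, was the fibrillar gene that was lower in KO, at 0.238 in WT and 0.0911 in KO from 61 and 32 UMIs, and it was at 4.31 in KO_PBS.

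Of the 6 type VI chains, whose filaments link fibrils to cells, 4 were called higher in KO. Col6a1 was at 69.1 CPM for WT, 168 for KO and 85.1 for KO_PBS. Col6a2 was at 33.1, 126 and 75.0, and Col6a3 at 48.5, 163 and 101. Each of these was at least 2-fold higher in KO than in WT and lay between them in KO_PBS, or below WT once ratios were centred. Col6a5 was at 0.832, 4.02 and 2.57 and was also called higher in KO. Col6a4 was at 0.625, 1.15 and 2.43, and Col6a6 at 1.75, 3.07 and 3.97, neither called between KO and WT.

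Of the 9 FACIT genes, 3 were called higher in KO and 4 lower. Col12a1, the FACIT of dense connective tissue, was at 128 CPM for WT, 284 for KO and 215 for KO_PBS. Col14a1 was at 13.4, 28.2 and 41.7, and Col16a1 at 12.3, 31.9 and 38.4. All 3 were called higher in KO, with folds of 2.22, 2.10 and 2.59, of which Col12a1 and Col14a1 lost the call after centring. The type IX chains, which coat type II fibrils in cartilage and vitreous, went the other way. Col9a1 was at 0.860 in WT and 0.424 in KO, and Col9a2 at 0.918 and 0.191, both called lower. Col9a3 was at 2.55 and 1.92 and was not called. Col19a1 was at 1.22 and 0.333 and Col22a1, a FACIT of tissue junctions such as that of muscle and tendon, at 0.551 and 0.162, both called lower. Col20a1 was at 2.10 and 3.40. Of the 5 genes lower in KO, Col22a1, Col2a1 and Col9a1 lost the call under at least 1 other setting. Lens, photoreceptor, melanocyte and retinal pigment epithelium lists were lower in KO than in WT as well, and their part in these values was not tested.

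Of the 9 basement membrane and anchoring genes, 1 was called between WT and KO. Type IV collagen is assembled from chains encoded in head-to-head pairs. The first pair, the chains of most basement membranes, had 32.1 CPM in WT against 50.9 in KO for Col4a1, and 24.2 against 41.3 for Col4a2. Col4a3 was at 44.5 and 30.1, and Col4a4 at 45.4 and 32.1. Col4a5 was at 29.1 and 30.4, and Col4a6 at 13.5 and 16.5. None of the 6 type IV genes was called, and the pair Col4a3 and Col4a4 was the one with lower values in KO. Col15a1, a basement membrane zone collagen of vessels and muscle, was called higher in KO, at 1.5004 in WT and 6.25 in KO (4.17-fold). Col18a1, the source of endostatin, was at 5.865 and 11.03, and Col7a1, the anchoring fibril chain, at 23.0 and 37.6, neither called. The vascular and lymphatic endothelium list was 2.46-fold higher in KO beside Col15a1.

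Type VIII chains, which build the lattice of Descemet's membrane, differed from each other. Col8a1 had 40.7 CPM in WT against 88.5 in KO and was called higher, though not after centring, while Col8a2 was at 62.3 and 58.1 and was not. The ratio of Col8a1 to Col8a2 UMIs was 0.653 in WT, 1.52 in KO and 0.804 in KO_PBS. Col10a1, the hypertrophic cartilage chain, was at 0.485 and 0.418.

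Among the transmembrane genes, Col17a1 (ENSMUSG00000025064, chromosome 19, 47646344 to 47692094), the hemidesmosome collagen of basal epithelium, was at 518 CPM in WT (516 to 521), 734 in KO (731 to 737) and 368 in KO_PBS (365 to 371). It was not called in any comparison, though it was called lower in KO_PBS than in KO and in WT after centring on the median gene. Col23a1 was called higher in KO, at 10.6, 33.4 and 74.1 in WT, KO and KO_PBS. Col13a1, a collagen of cell adhesion sites, was at 6.04, 6.10 and 6.25. After centring it was called lower in KO_PBS than in WT (log2 ratio -1.22). Col25a1 was at 3.27, 2.82 and 20.8. Outside these classes, Col26a1 was at 0.477, 0.279 and 4.52 and Col28a1 at 1.09, 0.908 and 3.41. Col26a1 was called lower in KO than in WT after centring alone (log2 ratio -1.02).

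**Figure D2:**
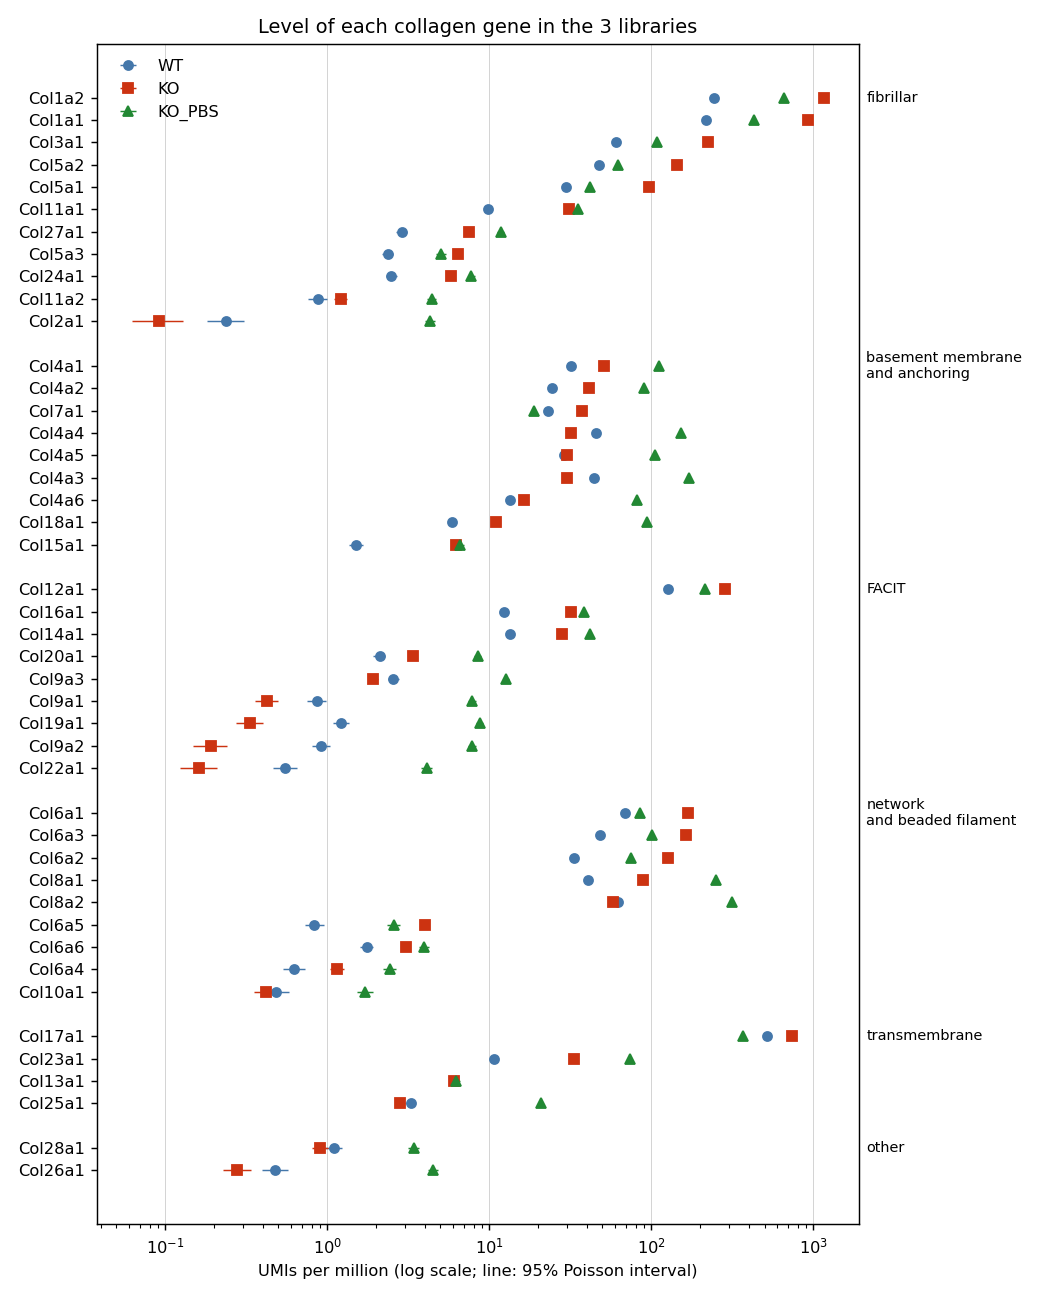
Level of each of the 44 collagen genes in CPM (horizontal log axis) in WT, KO and KO_PBS, with 95% Poisson intervals, grouped by class. Type I, III and V chains are highest in KO, while type IV, VIII, IX and XVIII chains are highest in KO_PBS.

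The keratocyte marker list, which holds Kera, Lum, Dcn and 5 more genes and no collagen, was itself at 767 CPM for WT, 1878 for KO and 1439 for KO_PBS, 2.45-fold higher in KO than in WT. The stromal list of C1qtnf7, Pde7b, Chsy3 and Erbb4, chosen from earlier results of these data, was 3.00-fold higher in KO, at 325 CPM against 108. The superficial corneal epithelium list was lower, at 15336 CPM in KO against 29917 in WT (0.513-fold). The part of these lists in the stromal collagen values was not tested beyond the scaling that follows. Set against the UMIs of the keratocyte list, a scaling chosen after seeing the data, type I chains kept a higher value in KO. Per 1000 keratocyte marker UMIs Col1a1 had 283 for WT, 494 for KO and 299 for KO_PBS, so its KO over WT fold was 1.75 instead of 4.27. Col1a2 had 319, 619 and 460.02, and Col3a1 79.0, 119 and 74.9. For Col5a1 the folds over WT became 1.33 in KO and 0.745 in KO_PBS, and for Col5a2 1.24 and 0.695. Col6a1 (0.994-fold), Col12a1 (0.909-fold) and Col14a1 (0.860-fold) were no longer higher in KO than in WT on this scale. Col6a2 (1.56-fold), Col6a3 (1.38-fold), Col11a1 (1.29-fold) and Col16a1 (1.06-fold) still were, so the type VI chains differed from each other. On this scale none of the 12 stromal genes tried reached 2-fold.

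Saline treatment in the knockout was the second comparison. The libraries also differ in their gene lists, of 31053 genes for KO_PBS and 32285 for KO, so they are not alike apart from saline. In KO_PBS 23 of 44 collagen genes were called higher than in KO and 4 lower, against 39.9% higher and 4.7% lower (44.6% in all) among 22416 genes. The median log2 ratio was 1.10 for collagens and 0.63 for all genes. Centred on the median gene, 17 collagens were higher and 12 lower, against 29.8% and 12.9% (42.7% in all) of all genes. The 4 lower genes were all fibrillar: Col1a1 (log2 ratio -1.11), Col3a1 (-1.06), Col5a1 (-1.22) and Col5a2 (-1.22). They kept the call in each of the 8 other settings, while per UMI of the keratocyte list their folds were 0.559 to 0.628. Settings that only loosen the rule, a lower fold limit and no UMI minimum, could not have ended a call. Col1a2 had a log2 ratio of -0.81, Col6a1 -0.98, Col6a2 -0.75 and Col6a3 -0.69, which did not pass the 2-fold limit until ratios were centred. Both comparisons share the KO library, so their values are set side by side and not tested against each other.

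Of the 23 higher genes, 8 were the type IV and VIII chains, and 7 of the 9 basement membrane and anchoring genes were called. Col4a3 (ENSMUSG00000079465) was at 171 CPM in KO_PBS (169 to 173) against 30.1 in KO, and Col4a4 (ENSMUSG00000067158) at 152 against 32.1. Col4a5 was at 106 and Col4a6 at 81.1, which were 3.49 and 4.92-fold the KO level. In the barcodes with the fewest UMIs these differences were smaller, with a log2 ratio of 1.83 instead of 2.50 for Col4a3, 1.00 instead of 1.81 for Col4a5 and 1.39 instead of 2.30 for Col4a6, each still called. Col4a1 was at 111 and Col4a2 at 90.3, each 2.19-fold the KO level, and both lost the call when ratios were centred. Col8a2 was at 314 (311 to 317) and Col8a1 at 252 (250 to 255), 5.40 and 2.85-fold the KO level, of which Col8a1 lost the call after centring and in the barcodes with the fewest UMIs (log2 ratio 0.89). Col18a1 was at 93.8 against 11.03 in KO, while Col15a1 at 6.64 was not called. Col7a1, at 18.9 against 37.6 in KO (log2 ratio -0.99), was not called either, but after centring it was called lower in KO_PBS than in KO (-1.62) and than in WT (-1.55). The corneal endothelium list was 1.65-fold higher in KO_PBS than in KO. The vascular and lymphatic endothelium list was 2.51-fold higher, the mural and smooth muscle list 4.03-fold and the skeletal muscle list 9.67-fold. The melanocyte list was 29.6-fold higher and the retinal pigment epithelium list 24.6-fold. Barcodes of KO_PBS rich in markers of these 2 lists held some type IV and VIII chains above the library's level, as given below. The part of all these lists in the type IV, VIII and XVIII values was not tested. Per 1000 UMIs of the corneal endothelium list, Col4a3 had 93.0 in WT, 54.3 in KO and 187 in KO_PBS, and Col8a2 130.2, 105 and 343. Col4a1 had 67.0, 91.8 and 122. Type IV and VIII chains therefore stood highest in KO_PBS on this scale as well, which takes no account of the other lists, for each of the 8 genes. Their KO_PBS over KO fold was 1.32 for Col4a1, 1.32 for Col4a2 and 1.73 for Col8a1, and above 2 for the others. This scaling, like that to keratocyte markers, was not planned.

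Both genes of each type IV pair were higher in KO_PBS than in KO. The annotated starts of Col4a3 and Col4a4 on chromosome 1 are 71 bases apart, those of Col4a5 and Col4a6 on the X chromosome 1308 bases apart, and Col4a1 and Col4a2 overlap at their starts on opposite strands, per GENCODE M21. The ratio of Col4a3 to Col4a4 UMIs was 0.980 in WT, 0.937 in KO and 1.13 in KO_PBS, and that of Col4a1 to Col4a2 was 1.32, 1.23 and 1.23. That of Col4a5 to Col4a6 moved more, at 2.15, 1.84 and 1.31. For comparison, Col1a1 to Col1a2, on different chromosomes, stood at 0.887, 0.798 and 0.649, and Col5a1 to Col5a2 at 0.624, 0.672 and 0.669. The stretch between the starts of the closest separated pair is shown because it is the sequence that both genes share upstream.
Col4a4 to Col4a3 interval (chr1:82586850-82586920, minus strand, read towards Col4a4): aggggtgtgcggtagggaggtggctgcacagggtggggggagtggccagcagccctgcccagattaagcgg
None of the 3 motifs was found in this interval on either strand, so it holds no capitals.

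Type II and IX chains, Col19a1 and Col22a1 were low in KO and far higher in KO_PBS. Col2a1 was 47.4-fold the KO level from 767 UMIs against 32, and Col9a2 41.0-fold at 7.82 CPM. Col9a1 at 7.85, Col19a1 at 8.72 and Col22a1 at 4.11 were 18.5, 26.2 and 25.3-fold the KO level. Both of these comparisons use the KO library, so a low value there enters each. In the barcodes with the fewest UMIs the log2 ratio of Col9a2 was 4.70 instead of 5.36, and that of KO over WT -1.53 instead of -2.27. Col9a3 was at 12.8 CPM and Col26a1 was 16.2-fold the KO level. Lens, photoreceptor and pigment cell lists were 24.6 to 40.0-fold higher beside these genes, and their part in these values was not tested. Col11a2, Col28a1, Col10a1, Col25a1, Col20a1, Col6a4 and Col23a1 were the other genes called higher. They had folds of 2.11 to 7.38. Col20a1, Col23a1 and Col6a4, like Col8a1, lost the call after centring and in at least 1 other setting. Col26a1 and Col20a1 overlap, on their own strand, a gene that is missing from the KO_PBS gene list.

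**Figure D3:**
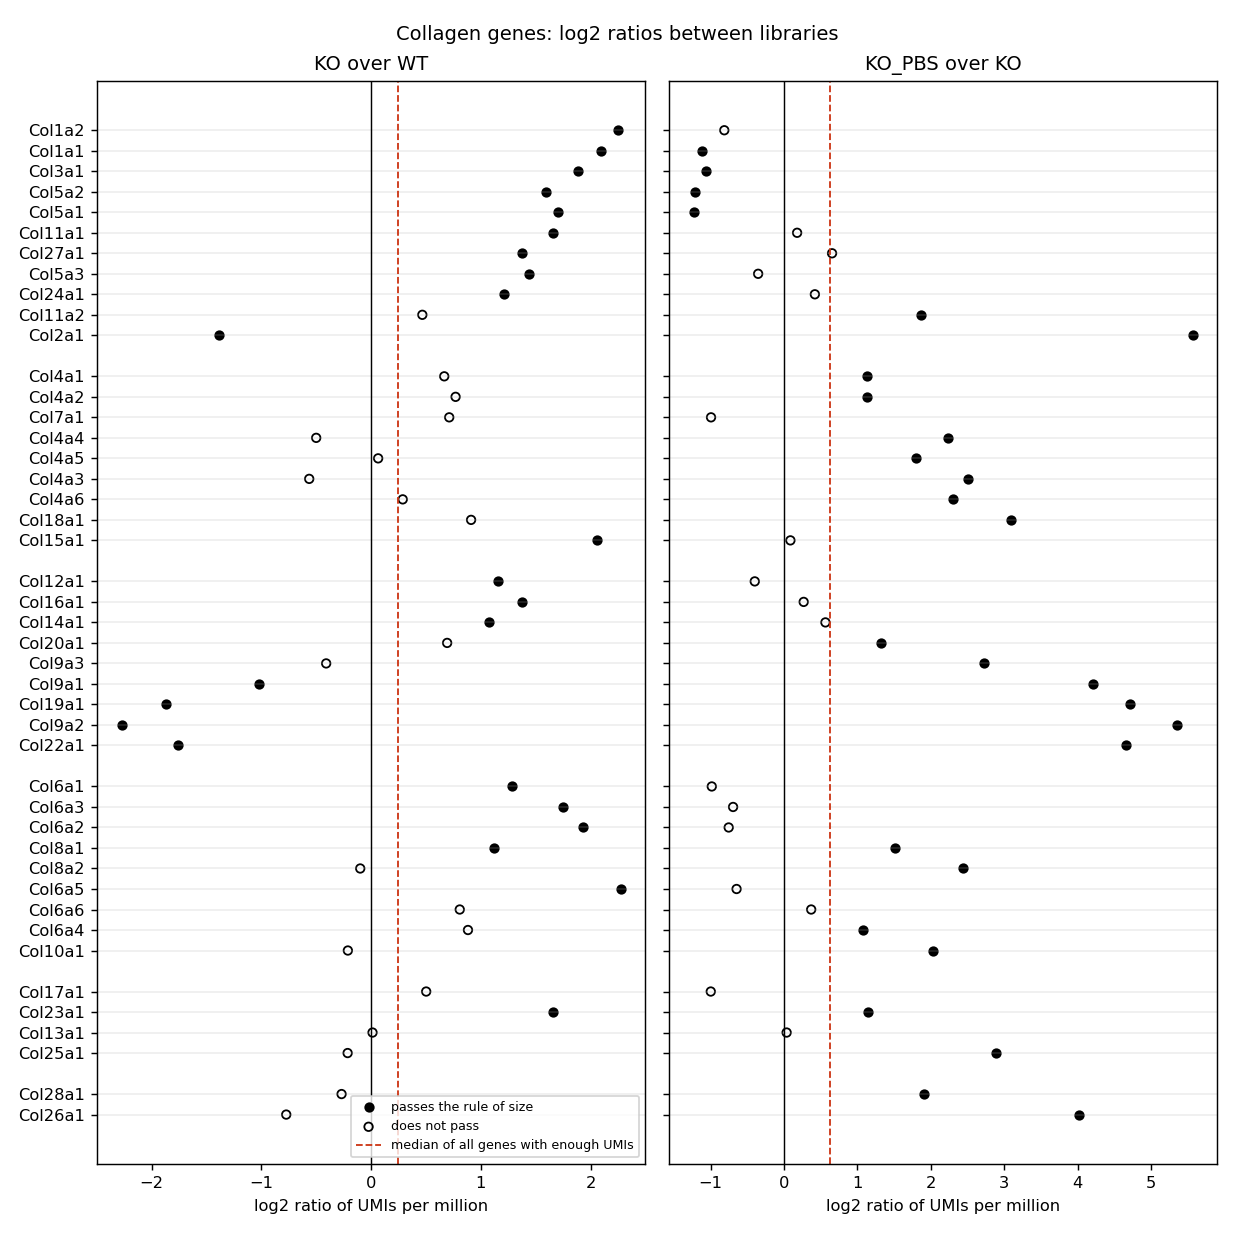
Log2 ratio of CPM for each collagen gene, KO over WT at left and KO_PBS over KO at right, with filled points for genes that pass the rule of size and a dashed line at the median of all genes (0.24 and 0.63). Both panels share the KO library, and type I, III and V chains lie right of zero at left and left of zero at right.

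Against WT, KO_PBS had 35 of 44 collagen genes called higher and 0 called lower, where 57% of all 22138 genes were higher and 4.06% lower (61% in all). The collagen median log2 ratio was 1.83 and that of all genes 1.27. After centring, 14 were higher and 3 lower, against 29.6% and 23.1% (52.7% in all) of all genes. Centring put Col5a3, Col6a2, Col6a3 and Col6a6, called higher without it, below their WT level. The 3 comparisons share libraries and are not independent. Col1a1 in KO_PBS was 1.98-fold its WT level and Col3a1 1.78-fold, neither called, and Col1a2 was 2.70-fold, a call lost after centring. Col5a1 and Col5a2 were 1.40 and 1.30-fold. Col18a1 was 16.0-fold its WT level and Col2a1 18.1-fold, and both kept the call after centring. Col17a1 (0.709-fold) and Col7a1 (0.823-fold), the collagens of the epithelial anchoring complex, were the genes with less than their WT level. The basal and limbal epithelium list, from Krt14, Krt5 and 6 more genes, was at 0.304-fold its WT level. Per 1000 UMIs of that list, also an unplanned scaling, Col17a1 had 43.4 in WT, 75.1 in KO and 101 in KO_PBS. Col7a1 had 1.92, 3.85 and 5.19.

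To see where in the tissue collagens were found, barcodes rich in cell type markers were summed. A barcode was marker-rich when at least 3 markers of a class had a UMI and their sum had a Poisson tail under 1e-7 given the library's own share of those markers. No collagen is a marker. Keratocyte-marker-rich barcodes numbered 955 for WT, 239 for KO and 12 for KO_PBS, and for corneal endothelium 333, 80 and 228. The 12 of KO_PBS were too few to sum. The numbers are not cell counts, since the limit depends on each library's own level and depth. For the same reason the barcodes of a class are not selected alike in each library, and CPM in a class compare unlike sets. Collagen UMIs were also found in barcodes of other kinds. The 25% of barcodes with the fewest UMIs had a median of 0.966 of the library's level in WT, 0.987 in KO and 0.912 in KO_PBS over the genes with at least 10 CPM. The lowest ratio in KO_PBS was 0.557, of Col4a6. These barcodes are not alike across libraries, since 25969 of 26776 in KO and 23070 of 28693 in KO_PBS passed the filter for called barcodes, and 0 of 24170 in WT did. Plasma-cell-marker-rich barcodes of KO, in a cell type not known to make fibrillar collagen, held Col1a1 at 714 CPM (681 to 747) beside 928 in the library, and photoreceptor-marker-rich barcodes of WT held it at 199 beside 217. In photoreceptor-marker-rich barcodes of KO_PBS the collagen genes with enough UMIs ranged from 0.546-fold (Col16a1) to 2.58-fold (Col19a1) the library's level. Genes under 20 UMIs were left out, so a low-level gene such as Col19a1 could enter this range only above the library's level. Levels in a class are therefore read against the library's own level.

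Keratocyte-marker-rich barcodes exceeded the library in stromal collagens. In WT they held Col1a1 at 1787 CPM (1747 to 1828), 8.23-fold the library's level, Col6a1 at 631 (9.14-fold) and Col5a1 at 227 (7.60-fold). In KO they held Col1a1 at 3401 (3286 to 3519), 3.67-fold the library's level. Col1a2 was at 1727 in WT and 4131 in KO in these barcodes (7.05 and 3.55-fold), and Col3a1 at 137 and 499.8 (2.26 and 2.23-fold). In CPM, type I and III chains were thus higher in the KO barcodes of this class than in those of WT, while their folds over the library were not. The keratocyte list itself was 2.45-fold higher in KO, so the limit for entry differed between these sets, and what this did to their CPM was not tested. Col6a1, at 631 (608 to 656) and 661 (611 to 714), had overlapping intervals and was 3.93-fold the library's level in KO. Col12a1 was at 703 and 797 (5.51 and 2.81-fold the library's level), and Col5a2 at 351 and 433 (7.34 and 2.99-fold). The KO library as a whole held more of each of these genes too. Col3a1 exceeded the library less than the other stromal chains in WT, 2.26-fold. It was 4.13-fold the library's level in the 29 vascular and lymphatic endothelium-marker-rich barcodes of WT. In the 29 such barcodes of KO it was at 275 CPM (197 to 372), 1.23-fold the library's level. The sum of fibrillar genes was 4319 CPM in keratocyte-marker-rich barcodes of WT (4257 to 4382) and 8916 in those of KO (8729 to 9105).

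Corneal endothelium-marker-rich barcodes exceeded the library in type IV and VIII chains in each group, except that Col4a6 had under 20 UMIs in those of KO. Col8a2 was at 669 CPM in WT (628 to 711), 928 in KO (833 to 1030.2) and 1873 in KO_PBS (1784 to 1965), which were 10.7, 16.0 and 5.96-fold the library's level. Col4a4 was at 466, 455 and 1560 (10.3, 14.2 and 10.3-fold), and Col4a3 at 399.99, 328 and 1962 (8.99, 10.9 and 11.5-fold). The CPM intervals of Col4a4 and of Col4a3 overlapped between WT and KO and lay higher in KO_PBS. The library's own level was higher in KO_PBS too, and the fold of Col4a4 over it was not. Col8a1 was at 195, 211 and 1942. It was 4.80-fold the library's level in WT, 2.39-fold in KO and 7.70-fold in KO_PBS. Col12a1 exceeded the library as well, at 687, 817 and 919 (5.38, 2.88 and 4.27-fold). Col1a1 was at 241, 735 and 262 CPM in the same barcodes, 1.11, 0.792 and 0.609-fold the library's level, so type I collagen was not read as specific to them. The summed type IV and VIII genes were at 2401 CPM for WT, 2585 for KO and 9493 for KO_PBS. In KO_PBS other classes exceeded the library in these chains too. The 100 barcodes rich in C1qtnf7, Pde7b, Chsy3 and Erbb4, a stromal list chosen from earlier results of these data, held Col4a3 at 769 CPM (4.51-fold the library's level), Col4a4 at 552 (3.64-fold), Col4a6 at 297 (3.66-fold) and Col8a1 at 828 (3.28-fold). The same barcodes held Col1a1 at 0.828-fold and Col1a2 at 0.942-fold the library's level, where those of WT held them at 2.40 and 2.45-fold, so type I chains did not mark this list in KO_PBS. In the retinal pigment epithelium-marker-rich barcodes Col4a3 was at 594 (3.48-fold) and Col4a4 at 439.9 (2.90-fold).

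Other collagens were read in smaller sets, where a gene was shown only with at least 20 UMIs. In the 29 vascular and lymphatic endothelium-marker-rich barcodes of KO, Col15a1 was at 134 CPM (81.8 to 207), 21.4-fold the library's level from 20 UMIs. The minimum let no lower fold of Col15a1 appear there, so this value does not show that it marks the class. Col4a1 was at 315 there, 6.18-fold. In the 73 retinal pigment epithelium-marker-rich barcodes of KO_PBS, Col9a3 was at 207 (152 to 275), 16.2-fold the library's level, and Col8a1 at 1927 (1751 to 2116), 7.63-fold. With so few UMIs in the class, Col9a3 could be shown only well above its library level. Col8a1 in KO_PBS was therefore found at a like level in barcodes rich in corneal endothelium markers and in those rich in pigment epithelium markers. Melanocyte-marker-rich barcodes of KO_PBS held Col25a1 at 94.9 and Col4a6 at 316, 4.55 and 3.90-fold the library's level. Basal and limbal epithelium-marker-rich barcodes held Col17a1 at 373 CPM in WT (348 to 398), 826 in KO (785 to 869) and 1001 in KO_PBS (926 to 1081). In WT this was 0.719-fold the library's level and in KO_PBS 2.72-fold, so the class did not stand out for Col17a1 in WT. Col7a1 was at 16.8, 46.1 and 63.8 in the same barcodes, which were 0.732, 1.23 and 3.38-fold the library's level.

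**Figure D4:**
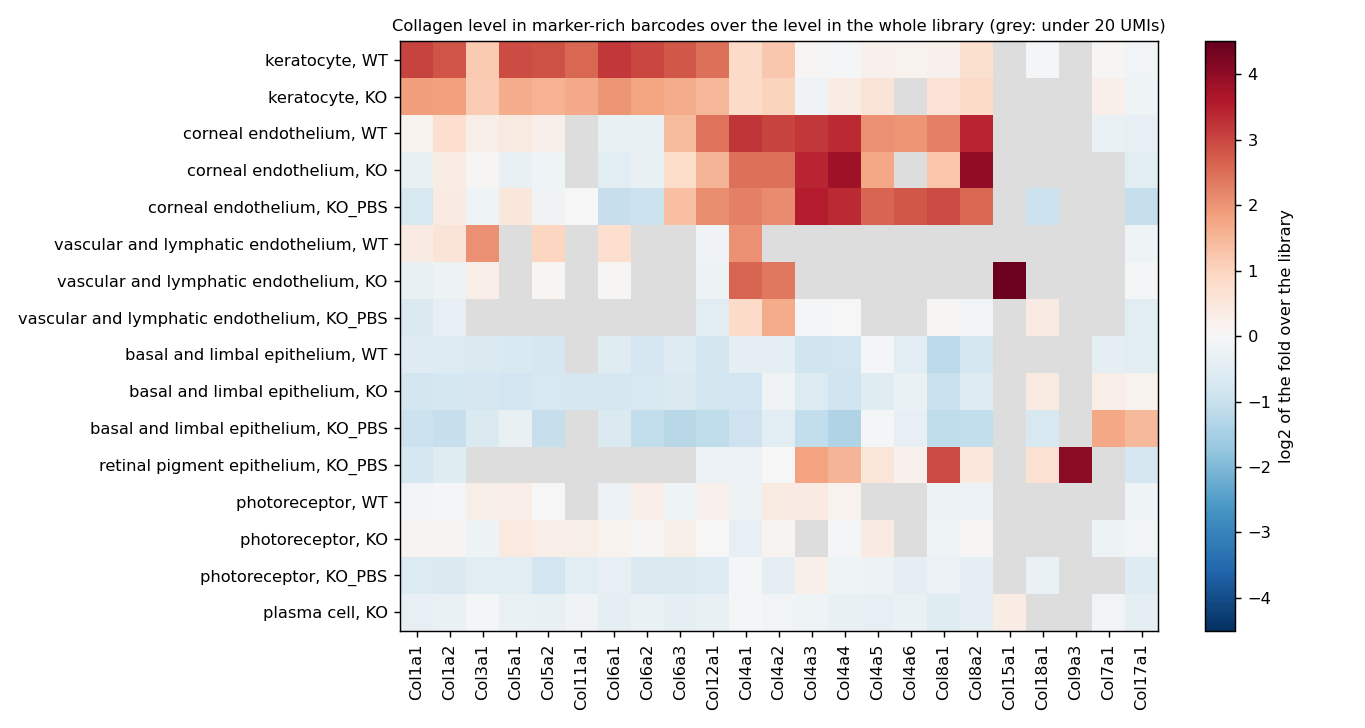
Log2 of the collagen level in marker-rich barcodes over the level in the whole library (colour scale), by marker class and library (rows) and gene (columns), with grey for sums under 20 UMIs. Type I, V and VI chains exceed the library in keratocyte rows, and type IV and VIII chains in corneal endothelium rows, while in the plasma cell row of KO and the photoreceptor rows of WT and KO values lie between 0.679 and 1.35-fold the library's level.

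Enzymes and partners that make, process and bind collagen were taken from lists of 49 symbols, of which 47 were matched. In KO, 23 of the 46 with enough UMIs were called higher than in WT and 0 lower, with a median log2 ratio of 0.95 beside 0.24 for all genes. The rule of size calls 20.6% of all genes higher. In KO over WT the keratocyte list was 2.45-fold, the C1qtnf7 stromal list 3.00-fold and the superficial corneal epithelium list 0.513-fold. Their part in the values of these genes was not tested. After centring 17 of the 46 were higher and 1 lower, beside 14.8% and 12.9% of all genes. In the cross-linker list 4 of 5 genes were higher, of which Loxl1 lost the call after centring. Lox, the lysyl oxidase that cross-links fibrils, was at 3.50 CPM in WT (3.28 to 3.74), 43.1 in KO (42.5 to 43.8) and 15.8 in KO_PBS (15.3 to 16.4). It was the one gene of these lists called lower in KO_PBS than in KO. Its relative Loxl1 was at 11.8, 27.7 and 52.8, Loxl2 at 5.23, 9.35 and 27.1, and Loxl3 at 1.58, 5.97 and 14.0. Lox thus stood highest in KO, and Loxl1, Loxl2 and Loxl3 stood highest in KO_PBS. Between KO_PBS and KO, Loxl1 was not called, and Loxl2 and Loxl3 lost the call after centring, while Lox kept it. Loxl4, named here for the count after its values were seen, was at 0.270, 0.874 and 0.574.

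Of the 20 hydroxylases, chaperones and glycosyltransferases, 10 were higher in KO than in WT, of which Plod3, Colgalt1 and P4ha1 lost the call after centring. Serpinh1, the collagen chaperone HSP47, was at 36.4, 87.8 and 61.0 CPM (WT, KO and KO_PBS). The prolyl hydroxylase subunit P4ha1 was at 14.1, 32.2 and 39.6. P4ha2, which was called in KO_PBS over WT alone and not after centring, was at 6.72, 9.68 and 18.2. The lysyl hydroxylases were all called higher in KO and none was called between KO_PBS and KO. Plod1 was at 16.8, 41.6 and 45.0, Plod2 at 3.70, 9.89 and 14.2, and Plod3 at 9.11, 19.8 and 23.9. The glycosyltransferases Colgalt1 (15.2, 31.8 and 38.8) and Colgalt2 (5.24, 15.0 and 23.9) were called higher in KO too. P3h1 (3.06, 7.58 and 13.3) and Fkbp10 (6.10, 15.5 and 21.5), both of the prolyl modification machinery of the endoplasmic reticulum, were as well. Crtap (15.6, 24.8 and 35.4) and Sec23a (16.3, 28.0 and 43.5) were called in KO_PBS over WT alone, and neither was after centring (log2 ratios -0.089 for Crtap and 0.15 for Sec23a). P3h3 was at 6.78, 9.07 and 35.7, and P3h4 at 46.1, 32.2 and 22.1, the one gene of these lists called lower in KO_PBS than in WT.

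Among 8 propeptide proteinases and enhancers, 3 were higher in KO than in WT. Adamts2 was at 6.44, 19.7 and 18.9 CPM, and Bmp1 at 7.53, 20.9 and 33.7. Adamts14, named after its values were seen, was at 0.367, 1.45 and 4.39. Pcolce, which speeds procollagen cleavage, was at 61.2, 105 and 298, and Adamts3 at 3.14, 5.04 and 17.3, both called in KO_PBS over KO and not in KO over WT, a call that Pcolce lost after centring. Of 11 receptors, 1 of which (Gp6) had too few UMIs in WT and KO, 4 were higher in KO, and Mrc2 lost the call after centring. The leukocyte collagen receptor Lair1 was at 0.527 in WT, 12.0 in KO and 18.6 in KO_PBS, beside a macrophage list that was 6.20-fold higher in KO than in WT. Ddr2, a receptor for fibrillar collagen, was at 10.3, 33.8 and 51.8, Itga1 at 5.26, 17.7 and 16.4, and the endocytic receptor Mrc2 at 19.6, 40.8 and 32.5. Fap (4.37, 13.2 and 15.9) and Ctsk (11.5, 25.9 and 23.0), which degrade collagen, were higher in KO, a call that Ctsk lost after centring. In KO_PBS over KO, 9 of 47 genes were higher and 1 lower, where 39.9% and 4.7% of all genes were. Centring turned this round, to 3 higher and 8 lower beside 29.8% and 12.9% of all genes, and the median log2 ratio of the list from 0.29 to -0.34. In KO_PBS over WT 30 were higher and 1 lower, where 57% and 4.06% of all genes were. After centring 9 were higher and 8 lower, beside 29.6% and 23.1% of all genes.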

How the data were processed

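The deposited files are UMI counts per gene and barcode, not normalized. The file headers name Cell Ranger 7.0.1, and the build is mm10 per the submitters' processing notes. Which annotation was used, whether introns were counted and how barcodes were filtered is not given in the sources used here. Counts were summed over all barcodes and 30406 shared Ensembl IDs, which held 99.6%, 99.6% and 99.3% of the UMIs in WT, KO and KO_PBS. The lists held 32285, 32285 and 31053 genes, so the KO_PBS list also holds IDs that are not in both other lists. Both comparisons with KO_PBS therefore cross unlike gene lists, and what this did to the counts was not tested. No doublets were removed. In ratios, counts under 3 were set to 3. An alternative kept barcodes with 500 or more genes, 5% or less mitochondrial UMIs, and a UMI total of 10% or more of the 99th percentile of the top 10000. Others took the lowest 25% of barcodes by UMIs, other library totals, centred ratios, a 1.5-fold limit and no UMI minimum. The last thinned the gene sums to the total of the shallowest library, without matching UMIs per barcode. The rule of size was tested on simulated Poisson counts, which hold counting error only. This cannot show how often the rule calls genes between replicate libraries. Genes with at least 1 CPM in any library were named, and processing genes called with at least 10. The members and lists were chosen with earlier results of these data known. Gene positions come from GENCODE M21 (GRCm38) and upstream sequences from RefSeq (GRCm38.p6). Of the collagen genes, Col20a1, Col24a1 and Col26a1 overlap, on their own strand, a gene that the KO_PBS list lacks. The tools were Python 3.11.15 with pandas 2.3.3, numpy 2.4.6 and scipy 1.17.1, and matplotlib 3.10.9 for figures.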

Additional observations from a re-analysis of the deposited data

How the results depend on the processing

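Of the 19 collagen genes higher in KO than in WT, 19 kept the call in 7 of the 8 planned settings. The exception was centring on the median gene, under which Col12a1, Col14a1, Col24a1 and Col8a1 lost it. Of the other settings, the 1.5-fold limit and the lack of a UMI minimum only loosen the rule, so neither could end a call. Totals over all listed genes hardly differ from those over the shared IDs. The number lower in KO was 3 in the barcodes with the fewest UMIs. For KO_PBS over KO the number lower was 12 after centring and 11 at a 1.5-fold limit, and for KO_PBS over WT centring gave 14 higher and 3 lower. Centring put Col5a3 (-0.18), Col6a2 (-0.092), Col6a3 (-0.21) and Col6a6 (-0.091) below WT in KO_PBS on the log2 scale. For the processing and receptor genes centring gave 1 lower in KO over WT (all genes 12.9%), 3 higher and 8 lower in KO_PBS over KO (29.8% and 12.9%), and 9 higher and 8 lower in KO_PBS over WT (29.6% and 23.1%). Per UMI of the keratocyte list the KO over WT log2 ratio was -0.0081 for Col6a1, -0.14 for Col12a1 and -0.22 for Col14a1. It stayed above 0 for the other type VI chains tried, at 0.64 for Col6a2 and 0.46 for Col6a3. At Poisson tails of 1e-4 and 1e-10, fibrillar genes in keratocyte-marker-rich barcodes were at 3564 and 4986 CPM for WT and at 6771 and 10115 for KO, and type IV and VIII genes in corneal endothelium-marker-rich barcodes at 1969 and 2708 for WT, 1833 and 2914 for KO, and 7871 and 10254 for KO_PBS. The cause of these moves was not tested. No paired analysis was possible because each group has 1 library, and none could be left out.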
